A study of Drosophila melanogaster with 2 samples.

Results

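The sex peptide network is a set of male seminal proteins that act together after mating. The sex peptide, encoded by *Acp70A*, is made in the accessory glands of the male, is passed to the female with the ejaculate, lowers her readiness to mate again and raises her egg laying. It binds to the tails of stored sperm and is released from them over time. The other proteins of the network, apart from the peptide of *Dup99B*, are needed for this binding and for the lasting response of the female. The genes looked at here were *Acp70A*, the related ejaculatory duct peptide gene *Dup99B*, the C-type lectin genes *lectin-46Ca* and *lectin-46Cb*, the serine protease gene *Sems*, the protease homolog genes *aqrs*, *intr* and *CG9997*, and the cysteine-rich secretory protein genes *antr* and *CG17575*. These 10 genes were taken by name, with earlier results of these data known, and the rule itself uses no measured value. Of the 14794 genes in the deposited table, 6 carry the symbol of a network gene, namely *Acp70A*, *Dup99B*, *lectin-46Ca*, *lectin-46Cb*, *CG9997* and *CG17575*. The other 4 are listed under earlier symbols and were found by gene identifier, *Sems* as *CG10586* (FBgn0037036), *aqrs* as *CG14061* (FBgn0039598), *antr* as *CG30488* (FBgn0050488) and *intr* as *CG12558* (FBgn0039599). Counts are given for the 6 and for all 10.

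Polyadenylated RNA of whole adult *Drosophila melanogaster* males, aged 1 to 3 days after eclosion, was sequenced in 2 libraries. One library came from heph2 homozygotes and the other from heph2/TM3 males, which served as the wild-type control. *hephaestus* (*heph*) encodes the polypyrimidine tract-binding protein of the fly, an RNA-binding protein, and heph2 is a *P* element insertion in an intron of the gene that makes homozygous males sterile. TM3 is a balancer of chromosome 3, so the control males also carried 1 copy of the heph2 chromosome. Each genotype had 1 library, so differences could not be checked against replicates and no p-values are given. In whole males, fewer cells of the accessory glands and less RNA in each cell cannot be told apart.

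Levels are in FPKM, which divides the fragments of a gene by its transcript length and by a measure of library depth. A change is the log2 ratio of the heph2 value to the control value. The comparison took in 11962 genes, those detected in both libraries whose mean level was 1 FPKM or more. Their median log2 ratio was 0.01, and the middle 50% lay between -0.24 and 0.29. Over all of its transcripts, *heph* itself went from 44.0 FPKM in control males to 27.2 FPKM in heph2 males. The paper reports that most *heph* transcripts of the mutant were truncated at the insertion, so these values do not measure full-length RNA. The locus entry of *heph* is also shared with another gene. The male RNA *roX1* was present in both libraries, at 91.8 FPKM in control males against 70.6 FPKM in the mutant (log2 ratio -0.38), as was *roX2*, at 22.9 and 24.6 FPKM (0.11, and below 0 with ribosomal protein, upper quartile or equal summed FPKM scaling). The 4 testis markers *Mst87F*, *dj*, *Mst98Ca* and *Mst98Cb* had log2 ratios from 0.39 to 0.76 as deposited, *Mst98Ca* alone turning negative (-0.03) after centring on ribosomal protein genes. The 6 yolk protein and eggshell markers, which belong to female tissues, summed to 260 FPKM in the control and 16.3 FPKM in heph2, with log2 ratios from -6.73 to -2.06. The part of these testis and female marker differences in the accessory gland and duct results was not tested.

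All 10 network genes were lower in the heph2 library, against 48.5% of all genes compared. Of the 10, 8 had log2 ratios between -1.15 and -0.78. *CG17575* and the duct gene *Dup99B* were closest to the control. Among the 6 genes listed under their own symbols the median log2 ratio was -0.83, and among all 10 it was -0.92. *Acp70A*, *aqrs*, *antr* and *Sems* fell at least 2-fold, which is 1 of the 6 and 4 of the 10, where 2.44% of all genes compared did. Centred on the ribosomal protein genes, the ratios of 4 of the 6, 8 of the 10 and 7.56% of all genes passed this step. No network gene rose 2-fold, against 2.79% of all genes. At a smaller step of 1.5-fold, chosen after the values were seen, 4 of the 6 and 8 of the 10 were lower, against 7.26% of all genes, and 0 were higher, against 9.16%. Together the 6 genes held 0.405% of all FPKM in the control and 0.191% in heph2.

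**Figure D1:**
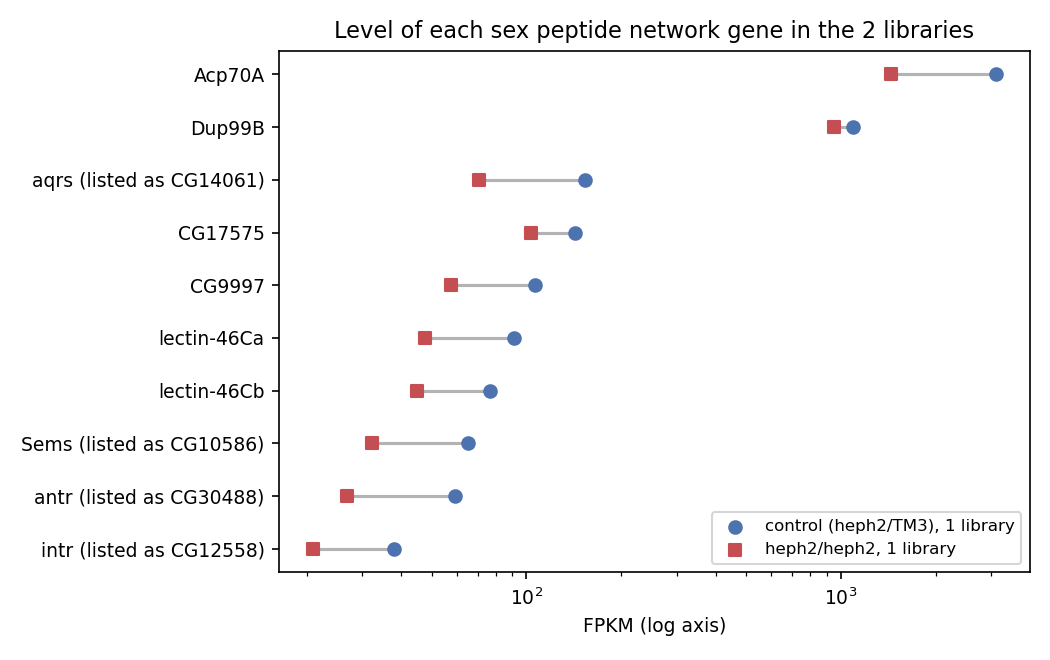
FPKM of each of the 10 network genes (log axis) in the control library (blue circles) and the heph2 library (red squares), 1 library each, with a grey line joining both values of a gene. Every red square lies to the left of its blue circle, and the lines are shortest for *Dup99B* and *CG17575*.

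The read counts behind these values were estimated, since FPKM holds none. Low FPKM values moved in steps of whole reads, and 1 read on 1 kilobase of transcript was worth 0.0215 FPKM in the control and 0.0332 FPKM in heph2. A heph2 read was thus worth 1.54 times as much FPKM as a control read. The read totals that the paper gives for the libraries differ by a smaller factor. Ratios as deposited are therefore not scaled by read totals alone, and the reason was not tested. With these steps, 91.5% of 153 low genes in the control and 92.6% of 163 in heph2 fell within 0.1 of a whole number of reads. Chance gives 20% for a step fixed in advance, but the steps were chosen to raise this share in the same genes. The shares thus describe the fit and do not test it. The network genes had at least about 1300.4 reads in the control and 469 in heph2. The standard error of a log2 ratio from counting reads was therefore between 0.03 and 0.08 for the 10 genes. It does not cover the difference between flies or between RNA preparations of 1 genotype.

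Of the peptides, *Acp70A* (FBgn0003034, 3L:13294735-13295022 in the FlyBase r5.44 coordinates used throughout) was the most abundant gene of the network. Its level was 3105 FPKM in control males and 1447 FPKM in heph2 males, 46.6% of the control. This 2.15-fold decrease is a log2 ratio of -1.10 ± 0.03 (standard error of counting). Only 1.87% of all genes lay below it. By level, *Acp70A* was gene number 34 of the table in the control and number 189 in heph2. Its single transcript has 2 exons and 223 nucleotides in the later BDGP6 annotation, and for so short a transcript the level and the estimated reads depend on the fragment length assumed.

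*Dup99B* (FBgn0250832, 3R:25540725-25541153) encodes a peptide of the ejaculatory duct that resembles the sex peptide and acts on the same receptor. It was nearly level, at 1090.4 FPKM in control males and 951 FPKM in heph2 males (log2 ratio -0.20 ± 0.03). This lies within the middle 50% of all genes, 28.4% of which had a lower ratio. *Acp70A* was 2.85 times as abundant as *Dup99B* per length in the control and 1.52 times as abundant in heph2. The log2 ratio of *Acp70A* minus that of *Dup99B* was -0.90 ± 0.04 (counting error), a gap that a common scaling of each library leaves as it is. Relative to genes of similar transcript length the gap was -0.37. The peptide genes of the accessory gland and of the duct were thus closer in level in heph2 than in the control.

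**Figure D2:**
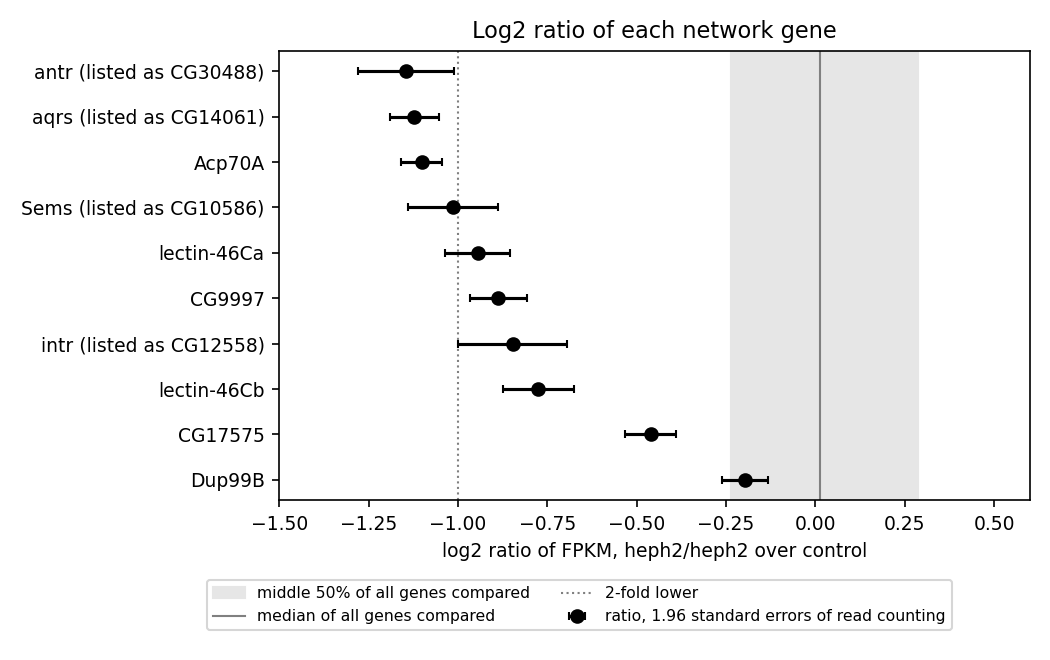
Log2 ratio of FPKM, heph2 over control, of the 10 network genes from the lowest to the highest, with bars of 1.96 standard errors of read counting, which do not cover variation between flies. The grey band is the middle 50% of all genes compared (-0.24 to 0.29) and the dotted line a 2-fold decrease. *Dup99B* alone lies inside the band, and *CG17575* lies between it and the other 8 genes.

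Of the lectins, *lectin-46Ca* (FBgn0040093) measured 91.5 FPKM in control males and 47.5 FPKM in heph2 males (log2 ratio -0.94 ± 0.05). *lectin-46Cb* (FBgn0040092) measured 76.8 and 44.9 FPKM (log2 ratio -0.78 ± 0.05). Neither reached a 2-fold decrease, and 2.83% and 4.36% of the genes compared had lower ratios. Both genes share a locus entry of the table, 2R:5698890-5707556, with *CG1648*. The ratio of *lectin-46Ca* to *lectin-46Cb* was 1.19 in the control and 1.06 in heph2, a difference in log2 ratio of -0.17 ± 0.07. *CG1648*, the third gene of that entry, was level, at 147 and 145 FPKM (log2 ratio -0.02).

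Other lectins did not share 1 direction. Among 9 other genes with a lectin- symbol that were compared, a list drawn up after the values were seen, 5 were lower and 4 higher, and the ribosomal protein scaling made this 6 and 3. The shares of all genes that were lower in these cases were 48.5% and 84.4%. *lectin-21Ca* (log2 ratio -1.20) and *lectin-21Cb* (-1.04) fell at least 2-fold, and *lectin-33A* (1.78) and *lectin-37Db* (1.14) rose at least 2-fold, against 2.44% and 2.79% of all genes. With ribosomal protein scaling or equal summed FPKM, 5 of the 9 were 2-fold lower and *lectin-33A* alone was 2-fold higher. Of all genes, 7.56% and 5.02% were then 2-fold lower, and 0.928% and 1.40% 2-fold higher. The median of the 9 was -0.74, with a range from -1.20 to 1.78. A range grows with the number of genes, so it cannot be set against the gap within the pair of network lectins.

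Of the proteases, *Sems* encodes seminase, a trypsin-like protease that starts a chain of cleavages among seminal proteins in the mated female. Located at 3L:20948855-20949850, it fell from 65.0 FPKM in control males to 32.2 FPKM in heph2 males. Its log2 ratio of -1.01 ± 0.06 lay at the 2-fold line within its counting error and was -0.99 with a pseudocount of 1 FPKM. *aqrs* (3R:24582721-24583956) fell from 154 to 70.5 FPKM (log2 ratio -1.12 ± 0.04), and was the most abundant network gene in the control after the peptides.

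*CG9997* (FBgn0039597, 3R:24581672-24582701) was at 106 FPKM in control males and 57.5 FPKM in heph2 males (log2 ratio -0.89 ± 0.04). *intr* (3R:24616244-24617183) had the lowest level of the network in both libraries, 37.8 and 21.0 FPKM, with a log2 ratio of -0.85 ± 0.08. The protease homologs *aqrs*, *CG9997* and *intr* lie on 1 stretch of chromosome 3R, *aqrs* and *CG9997* only 19 bases apart and *intr* 32287 bases from *aqrs*. *aqrs* was 1.44 times as abundant as *CG9997* in the control and 1.23 times in heph2, a difference in log2 ratio of -0.24 ± 0.05. *CG9997* and *intr* had log2 ratios 0.04 ± 0.09 apart, within the counting error. These 4 protease and protease homolog genes thus had log2 ratios between -1.12 and -0.85.

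The cysteine-rich secretory protein genes parted from each other. *antr* (2R:8734353-8735509) fell from 59.3 FPKM in control males to 26.8 FPKM in heph2 males, and its log2 ratio of -1.15 ± 0.07 was the lowest of the network. *CG17575* (FBgn0250842, 2R:8733049-8734101) was at 143 and 104 FPKM (log2 ratio -0.46 ± 0.04). Only 251 bases separate their loci. The level of *antr* was 0.416 of that of *CG17575* in the control and 0.259 in heph2, a difference in log2 ratio of -0.68 ± 0.08. Among all genes, 1.69% lay below *antr* and 10.9% below *CG17575*.

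Ranked by log2 ratio, the genes ran from *antr* through *aqrs*, *Acp70A*, *Sems*, *lectin-46Ca*, *CG9997*, *intr* and *lectin-46Cb* to *CG17575* and *Dup99B*. Each step among the first 8 was within 1.96 standard errors of counting, the widest being 0.09 ± 0.07 between *Acp70A* and *Sems*. The step from *lectin-46Cb* to *CG17575* was 0.31 ± 0.06 and that from *CG17575* to *Dup99B* 0.26 ± 0.05, both beyond it. *Acp70A* and *antr* differed 52.4-fold in level per length in the control, while their log2 ratios were 0.04 ± 0.07 apart. Relative to genes of similar transcript length *Acp70A* (-0.73) and *antr* (-1.42) were 0.69 apart, and *Acp70A* went from number 3 to number 8 of this order.

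The control carried TM3 on chromosome 3, where 6 of the 10 network genes lie. The 6 network genes on chromosome 3 had a median log2 ratio of -0.95 and a range from -1.12 to -0.20. The 4 on chromosome 2 had a median of -0.86 and a range from -1.15 to -0.46. Over all genes compared, the medians of the arms were 0.00 on 3L, 0.00 on 3R and 0.02 on 2R. At least 2-fold lower were 84 of 2297 genes on 3L, 87 of 2944 on 3R, 45 of 2234 on 2L and 35 of 2447 on 2R. At least 2-fold higher were 69 on 3L, 87 on 3R, 61 on 2L and 70 on 2R. The share of genes 2-fold lower was thus larger on each arm of chromosome 3 than on each arm of chromosome 2. The shares 2-fold higher differed less. The part of the TM3 chromosome in the network ratios was not tested.

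The genes within 10 kb of the network genes, a window chosen after the values were seen, were read from the same table. Of 27 such neighbours that were compared and are not network genes, 20 were lower, 6 of them at least 2-fold, and 1 rose at least 2-fold, with a median log2 ratio of -0.21. Of all genes compared, 48.5% were lower, 2.44% at least 2-fold, and 2.79% rose at least 2-fold. With ribosomal protein scaling 22 of the 27 neighbours and 84.4% of all genes were lower, 9 of the 27 and 7.56% of all genes at least 2-fold. Next to *Acp70A*, *Sfp70A4*, a seminal fluid protein gene, fell from 612 to 267 FPKM (log2 ratio -1.20), and *CG42481* fell from 8121 to 3998 FPKM (-1.02). Next to *Sems*, *CG11037* fell from 209 to 84.5 FPKM (-1.31) and *CG10587* from 23.7 to 9.96 FPKM (-1.25), while *CG10588*, 183 bases away, had 10.8 and 9.08 FPKM (-0.26). *CG30486*, 29 bases from *antr*, fell from 24.4 to 10.4 FPKM (-1.24). *CG34295*, 38 bases from *intr*, fell from 4.66 to 1.69 FPKM (-1.47), from about 145 reads to 34.

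Around *Dup99B* more of the neighbours were higher than lower. Of its 7 neighbours compared, 5 were higher in heph2, against 6159 of all 11962 genes compared. The log2 ratios of these 5 stayed above 0 under each scaling tried. Whether the 7 genes differ from that share was not tested. *Obp99b*, an odorant-binding protein gene, rose from 596 to 1996 FPKM (log2 ratio 1.74), and *Obp99d*, 50 bases from the *Dup99B* locus, was at 37.8 and 71.6 FPKM (0.92). *Dup99B* lies between *Obp99d* and *Obp99b* and was nearly level.

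**Figure D3:**
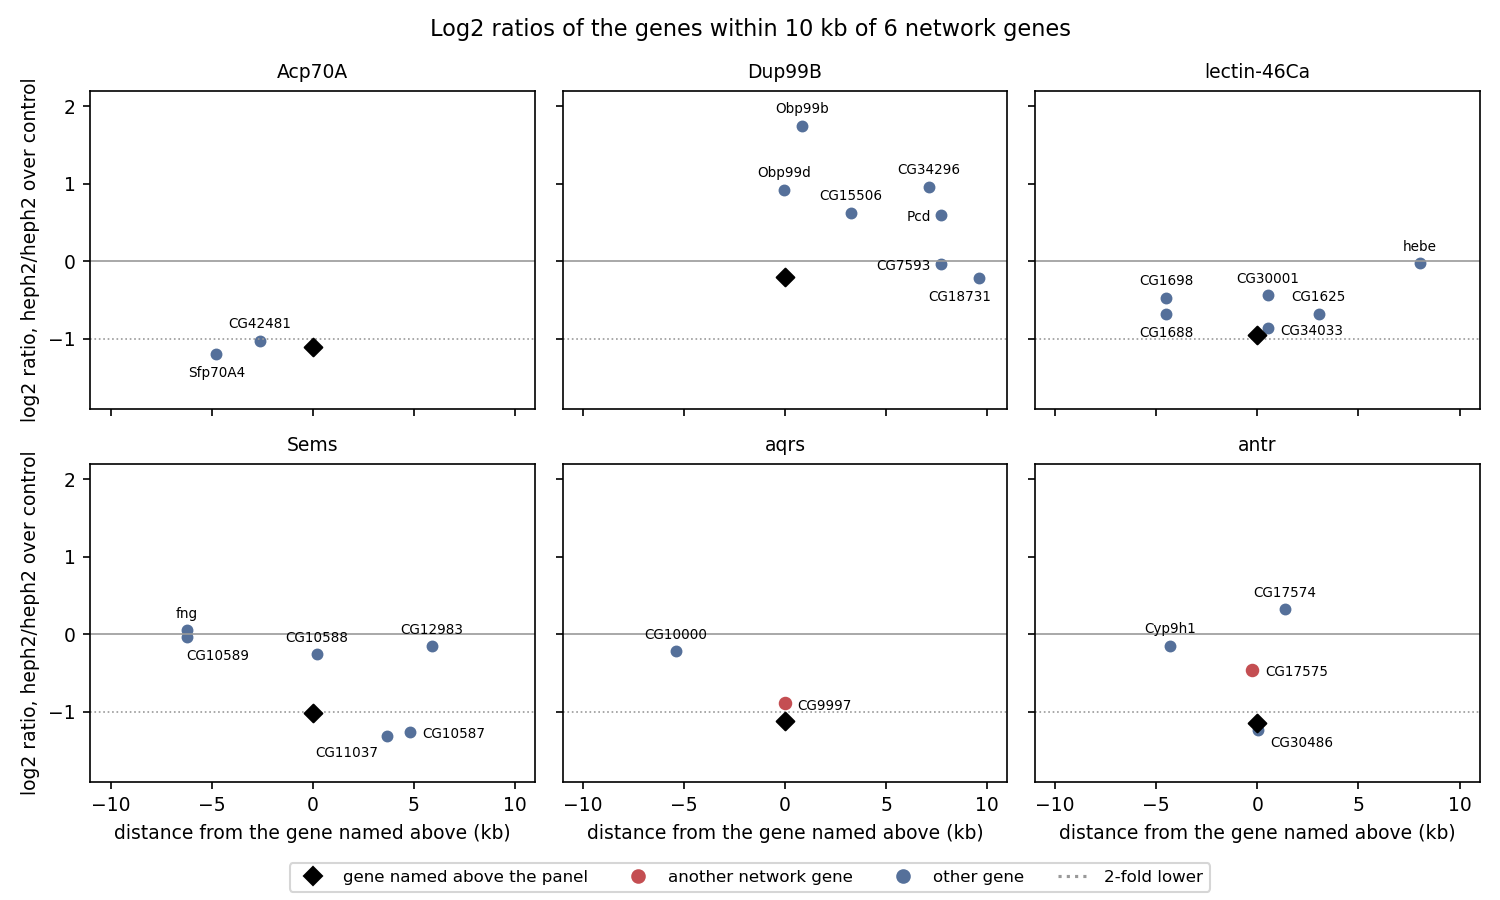
Log2 ratio of the genes within 10 kb of 6 network genes against distance in kilobases, with the network gene itself as a black diamond at 0, other network genes in red and remaining genes in blue, 1 library per genotype. Genes that share the locus entry of the lectins are not drawn. The neighbours of *Acp70A* lie near it at -1.20 and -1.02, and *Obp99b* lies at 1.74 beside *Dup99B*.

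Of 7 genes for seminal proteases, their inhibitors and their substrates, 6 were lower, and all 7 under each of the 4 other scalings. Of all genes compared, 48.5% were lower as deposited and 50% to 84.4% under the other scalings. Seminase is needed for the activation of the metalloprotease *CG11864* and, through it, for the cleavage of ovulin and of *Acp36DE*, a protein of sperm storage. *CG11864* fell from 33.0 to 16.4 FPKM, a log2 ratio of -1.01 ± 0.10, as for *Sems*. *Acp36DE* fell from 551 to 181 FPKM, a log2 ratio of -1.61 ± 0.01 and a larger decrease than that of any network gene. *Acp26Aa*, which encodes ovulin, was at 866 and 523 FPKM (-0.73).

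Of the other genes of this list, *CG6168* had 80.6 FPKM and 43.9 FPKM (-0.88), the serpin gene *Acp76A* 387 and 212 FPKM (-0.87), the protease inhibitor gene *Acp62F* 2590.4 and 2194 FPKM (-0.24), and the serpin gene *Spn28Dc*, listed as *Spn28D*, 19.1 and 19.2 FPKM (0.01). Of the 7 genes, 2 fell at least 2-fold, against 2.44% of all genes, and the median log2 ratio was -0.87. With ribosomal protein scaling or equal summed FPKM 5 of the 7 were 2-fold lower, against 7.56% and 5.02% of all genes. The list shares 5 genes with the accessory gland list below.

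The network was set beside 39 other accessory gland genes. Their median log2 ratio was -0.73, with the middle 50% between -0.97 and -0.49, and 38 of them were lower, against 48.5% of all genes. The exception was *Spn28Dc*, whose ratio of 0.01 fell below 0 under each of the 4 other scalings, but only to -0.0009 when centred on all genes. A 2-fold decrease was reached by 10 of the 39 (25.6%), 4 of the 10 network genes and 2.44% of all genes. With equal summed FPKM these became 20 of the 39, 8 of the 10 and 5.02% of all genes, and with ribosomal protein scaling 26 of the 39, 8 of the 10 and 7.56%. The lowest ratios were those of *Acp36DE* and *Spn77Bb* (-1.52), a serpin gene listed as *CG6663*, and the highest, after *Spn28Dc*, that of *Sfp60F* (-0.04), with 8082 FPKM and 7864 FPKM. Of these 39 genes, 12 had a lower ratio than the median network gene. The list as a whole held 10.3% of all FPKM in the control and 4.95% in heph2. Whether the network differed from other accessory gland genes was not tested, since 1 library of each genotype gives no error for such a difference.

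The 6 genes of the ejaculatory duct and bulb, *Dup99B* itself being a product of the duct, had a median log2 ratio of -0.43. None changed 2-fold with the deposited scaling, against 2.44% of all genes lower and 2.79% higher. With ribosomal protein scaling or equal summed FPKM 2 of the 6 were 2-fold lower, against 7.56% and 5.02% of all genes. The duct genes *Gld*, for glucose dehydrogenase, and *Est-6*, for a seminal esterase, had -0.85 and -0.76, with 21.3 against 11.9 FPKM for *Gld* and 529 against 311 FPKM for *Est-6*. The bulb genes *PebII* and *PebIII* had -0.14 and 0.37, the latter going to -0.06 when centred on the ribosomal protein genes. *Peb*, also of the bulb, had -0.42 and *Obp56g* -0.44. *Dup99B*, at -0.20, therefore lay above both duct genes, *Peb* and *Obp56g*, close to *PebII* and below *PebIII*.

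**Figure D4:**
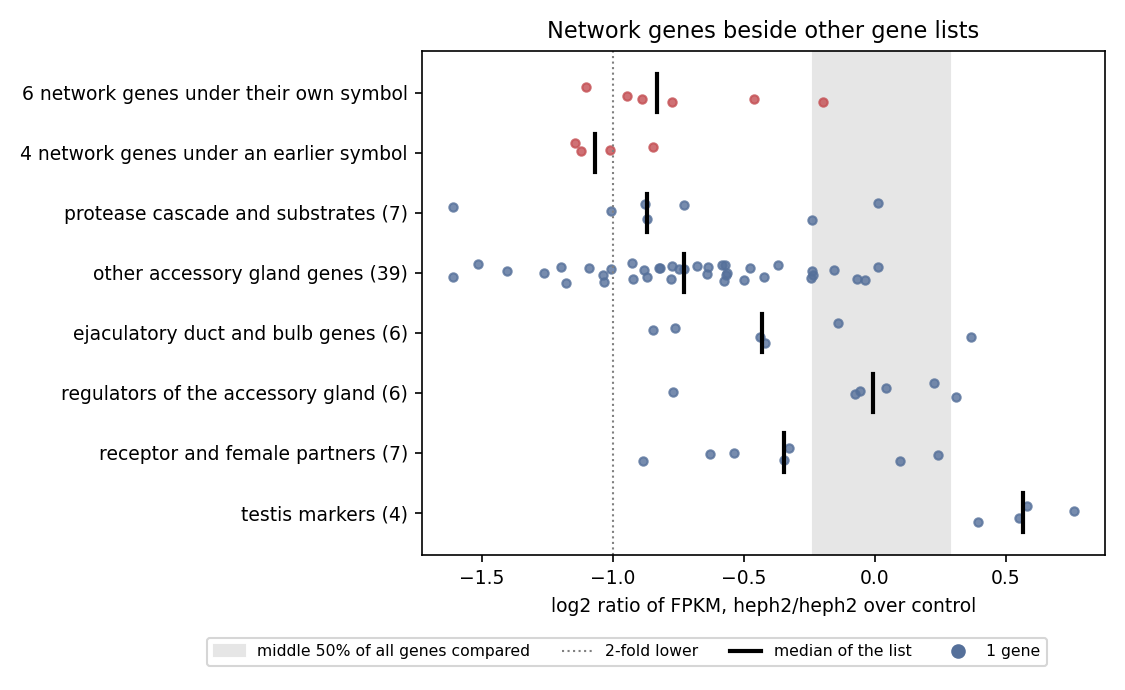
Log2 ratio of FPKM, heph2 over control, of each gene (points, with vertical scatter for legibility only) in the network (red, in 2 rows) and in 6 other lists (blue), with the median of each list as a black bar. The grey band is the middle 50% of all genes compared and the dotted line a 2-fold decrease. The network and the other accessory gland genes lie mostly left of the band, with medians of -0.83 for the 6, -0.73 for the 39 and -0.43 for the duct and bulb genes.

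The receptor of the sex peptide and the genes that act in the mated female were mostly expressed at low levels in these males, *hdly* being the exception at 42.2 and 45.1 FPKM. *SPR*, the G protein-coupled receptor of the sex peptide, was at 3.20 FPKM in control males and 2.52 FPKM in heph2 males (log2 ratio -0.35 ± 0.12). *Mip*, whose peptides are other ligands of this receptor, had 6.48 and 4.18 FPKM (-0.63), and *ppk*, a channel gene of the sensory neurons that carry the receptor, 1.67 and 0.904 FPKM (-0.89). *fru*, which marks the same neurons, had 6.97 and 5.55 FPKM (-0.33). The female network genes *Esp*, *hdly* (listed as *CG5630*) and *frma* (listed as *CG3239*) had log2 ratios of -0.54, 0.10 and 0.24, of which those of *hdly* and *frma* turned negative with equal summed FPKM or ribosomal protein scaling, and that of *hdly* with upper quartiles too. With the deposited scaling none of the 7 genes changed 2-fold, against 2.44% of all genes lower and 2.79% higher. With ribosomal protein scaling 2 of the 7 were 2-fold lower, against 7.56% of all genes. With upper quartiles or equal summed FPKM 1 of the 7 was, against 3.31% and 5.02% of all genes.

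Among the regulators of the accessory gland, *prd*, a transcription factor needed for the growth of the gland and for its products, was at 12.5 FPKM in control males and 7.31 FPKM in heph2 males (log2 ratio -0.77 ± 0.08). *Abd-B*, the Hox gene of the secondary cells of the gland, had 4.28 and 4.06 FPKM (-0.08), *dsx* of sex determination 10.01 and 9.63 FPKM (-0.06), and *Dad*, an inhibitor of BMP signalling, 7.44 and 7.67 FPKM (0.04). *EcR*, the ecdysone receptor gene, had a log2 ratio of 0.23 and *Rab19*, listed as *Rab-RP3*, one of 0.31. *Dad* turned negative under 3 scalings, *EcR* under 2 and *Rab19* under 1. These genes are expressed in many tissues of the fly, and of the 6 only *prd* was more than 1.5-fold lower, against 7.26% of all genes. With ribosomal protein scaling or equal summed FPKM *prd* was 2-fold lower (-1.20 and -1.05), as were 7.56% and 5.02% of all genes.

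The genes whose pair of values was most like that of *Acp70A*, by Euclidean distance over log2 FPKM in both libraries, were *MtnC* (distance 0.157), *Acp53Ea* (0.330), *Acp53C14b* (0.381), *Acp53C14a* (0.411) and *Mst57Db* (0.423). *MtnC*, a metallothionein gene, fell from 3443 to 1399 FPKM (log2 ratio -1.30). The other 4 are accessory gland genes. With only 2 libraries, this measure says little more than that level and ratio were alike.

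Scaling the libraries in other ways lowered the log2 ratios of all genes by 1 amount. Their median, 0.01 as deposited, became -0.27 with equal summed FPKM, -0.11 with upper quartiles and -0.42 when centred on 88 ribosomal protein genes, and the distance of each network gene from that median stayed the same. Of all genes compared, 48.5% were lower as deposited, 74.7% with equal summed FPKM, 60.9% with upper quartiles and 84.4% with ribosomal protein scaling. The 10 network genes were lower in each case. Over these and the other alternatives, *Acp70A* ranged from -1.53 to -0.73, with the upper end reached relative to 27 genes of similar transcript length, 4 of which are in the accessory gland list, and there it was no longer 2-fold lower. *antr* ranged from -1.57 to -1.12, *CG17575* from -0.89 to -0.46 and *Dup99B* from -0.63 to -0.20.

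**Figure D5:**
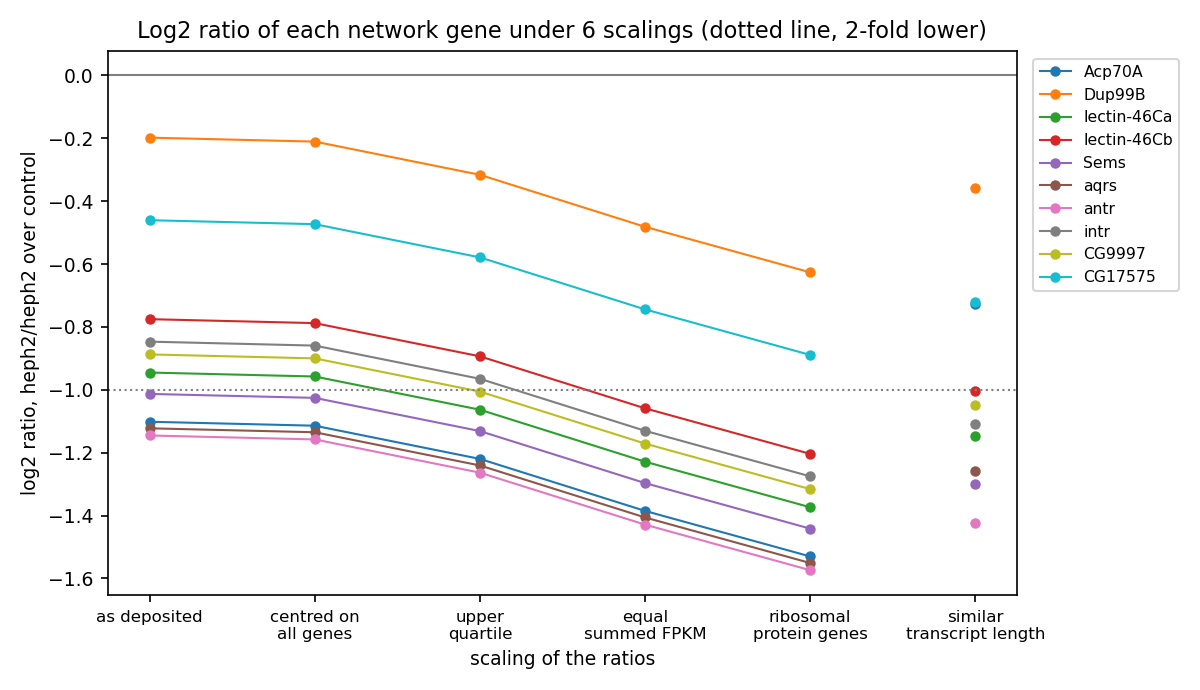
Log2 ratio of FPKM, heph2 over control, of the 10 network genes under 6 ways of scaling the ratios. Lines join the scalings that shift all genes by 1 amount, and the last column, taken relative to genes of similar transcript length, is not joined. All points lie below 0, *Dup99B* lies highest in each column, and the number of genes below the dotted 2-fold line depends on the scaling.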

How the data were processed

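RNA-Seq reads of 1 control and 1 heph2 library were mapped by the authors with TopHat 2.0.4 to the FlyBase r5.44 genome and annotation and analysed with Cufflinks 2.0.0, and 1 FPKM value per gene and library was deposited. The deposited log2 fold change column holds the authors' own comparison and was not used. Samples were grouped by their genotype labels. Log2 ratios were computed again without a pseudocount over the whole table. Reads per gene were estimated from the FPKM step of low genes, BDGP6 transcript lengths (13462 of 14794 gene identifiers matched) and fragments of 200 ± 80 bases, and give counting error only. Of 8716 genes alone in their locus entry, the locus length equalled the BDGP6 gene length with the start counted from 0 for 1489 and from 1 for 146, so 1 was added to every start. Network genes were matched by symbol, or by gene identifier for 4 of them. *msa* and *Acp33A* were not matched and are not reported here.

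The members (by a rule that uses names only), the gene lists and the measures were chosen with earlier results of these data known. All network genes and all genes of the pathway lists were named, with the 2 lowest and 2 highest of the duct and bulb and accessory gland lists and the 5 genes nearest to *Acp70A*. The remaining duct and bulb genes, *Peb* and *Obp56g*, were given too. The neighbours and the other lectins were added after the values were seen. Alternatives were pseudocounts, minimum FPKM, scalings, genes alone in their locus entry and, added later, equal summed FPKM, similar transcript length (within 1.25-fold) and matching by gene identifier. A median, ratio or count that differed by more than 1.5-fold was taken as moved. Python 3.11.15, numpy 2.4.6, pandas 2.3.3, scipy 1.17.1 and matplotlib 3.10.9 were used, and the steps were tested on simulated data.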

Additional observations from a re-analysis of the deposited data

How the results depend on the processing

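The count of 2-fold decreases among the 6 genes listed under their own symbols, 1 with the deposited scaling, was 3 with upper quartile scaling, 4 with ribosomal protein scaling and 4 with equal summed FPKM. It was 3 relative to genes of similar transcript length and 4 of 10 when genes were matched by identifier too. For these 10 genes, 4 as deposited, 8 were 2-fold lower with ribosomal protein scaling, 8 with equal summed FPKM and 7 relative to similar length. Scaling by construction shifts all genes alike, and relative to similar length *Acp70A* itself was no longer 2-fold lower. Among all genes compared, the 2-fold decreases were 292 as deposited and 904 with ribosomal protein scaling, 46.6% and 89.1% of the 2-fold changes, 601 and 78.2% with equal summed FPKM, 396 and 61.7% with upper quartiles, and 126 and 33.0% with a minimum mean FPKM of 10. A minimum of 10 FPKM left 7736 genes to compare, against 11962 in the main comparison. With no minimum the 2-fold decreases were 566 of 13433 genes. The decreases so added came by construction from genes with a mean below 1 FPKM, and why those genes were lower was not tested. Of 189 alternative values for the network genes, their counts, share and pairs, and the medians of the accessory gland and the duct and bulb lists, 181 stayed within 1.5-fold, 8 moved as given above and 0 changed direction. The 8 were all counts. The largest shift by a scaling, 0.43 on the log2 scale, is less than 1.5-fold, so no scaling could move a log2 ratio. The gap between *Acp70A* and *Dup99B* also counted as within 1.5-fold, at -0.90 and -0.37. This tally is thus no test of how stable the ratios are. No paired analysis was possible because each genotype had 1 library.

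The depth behind the network genes, at least 469 reads a library, gives a counting error of at most 0.08 on the log2 scale. The error between flies, RNA preparations and libraries is not known from 1 library of each genotype, and the estimated reads rest on transcript lengths of a later annotation.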
